A study of Mus musculus with 8 samples.

Results

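Epithelial junction and adhesion genes were followed here as 1 group of 41 named genes out of the 23478 genes of a raw read-count table, taken by gene symbol from a named list. They comprise 4 adherens junction genes, 3 other adhesion receptors, 9 claudins, 7 occludin-type, tricellular and scaffold proteins of tight junctions, 2 polarity genes, 10 desmosome and cornified-envelope genes, 4 membrane serine proteases and their inhibitors, and 2 genes of epithelial membrane trafficking. All 41 symbols were found in the table, and 40 of them, all but Cldn6, had enough reads to be tested. The RNA-seq series covers 8 mouse libraries in 4 groups of 2, and by its design text it was made to profile disseminated cancer cells beside tumours, and the effect of anti-tumour CD4 Th1 immunity on them.

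Disseminated cancer cells (DCC) were taken from bone marrow of mice that develop metastatic breast cancer spontaneously, and were left untreated (DCC control) or given interferon-gamma (DCC IFN-gamma), a cytokine that Th1 cells secrete. In the early lesion group were isolated primary cancer cells of an early mammary tumour lesion, whose title carries neuT, the activated rat Erbb2 oncogene. TUBO is an established mouse mammary carcinoma cell line, a single line grown in culture. The labels give the genotype of all 4 groups as WT and name no promoter for the neuT transgene, no age, and no dose or duration of interferon-gamma. The same treatment text, shared by all samples, also names TNF-alpha and anti-HER2 antibodies, and no sample label names either. Each library is labelled as a biological replicate, but nothing says that replicates came from separate animals or cultures, so p-values measure the spread between these libraries only. Nor do the labels say how tumour cells were separated from other bone marrow or mammary cells.

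Epithelial cells hold together through 3 kinds of contact. In adherens junctions, E-cadherin binds its like on the next cell and is tied to actin through beta-catenin and alpha-catenin, with p120-catenin keeping it at the membrane. Tight junctions are strands of claudins and occludin on zonula occludens scaffolds that close the gap between cells, and desmosomes join cadherins of the desmoglein and desmocollin kind to keratin filaments through plakoglobin, plakophilins and desmoplakin. Loss of these contacts together with a gain of mesenchymal genes is known as epithelial-mesenchymal transition, for which transcription factors of the Snai, Zeb and Twist families are known inducers.

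Each library had between 15432210 and 30168475 reads on genes, so that 3 counts, taken as the detection floor, stood for 0.0953 to 0.183 CPM (the usual scaling of counts to library size, here with TMM factors). DCC control 1 and early lesion 2 stood apart, with 49.2% and 44.1% of their reads in no annotated gene, against 18.3% to 31.0% in the other 6 libraries. The same 2 libraries had counts on 47.7% and 63.7% of 1450 olfactory and vomeronasal receptor genes, which are chiefly used in sensory neurons; the share was 11.9% in DCC control 2 and 0.966% to 2.0% in the other 5. Results below therefore also come without these 2 libraries where that changes them. The DCC label was checked against 6 epithelial keratins (Krt5, Krt7, Krt8, Krt14, Krt18 and Krt19), which summed to 1.43 to 2.37 CPM in untreated and 0.367 to 0.459 CPM in treated DCC libraries, and to 1745 to 4301 CPM in the tumour libraries. Fibroblast and stromal markers summed to 7456 and 8593 CPM in DCC control and osteoblast markers to 2332 and 2682 CPM, so by these lists the DCC libraries were rich in stromal RNA and had almost no keratin RNA.

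Together the 41 genes took 0.140% and 0.149% of gene counts in the untreated DCC libraries, and 0.145% and 0.118% in the treated ones. Early lesion gave them 0.843% and 0.858%, TUBO 0.904% and 0.876%. All 4 DCC libraries thus lay below all 4 tumour libraries. Within the DCC libraries, 4 genes, Ctnna1, Ctnnb1, Ctnnd1 and Tjp1, held 91.6% to 93.4% of the members' counts, while in the tumour libraries the same 4 held 28.2% to 31.5%. In DCC control 7 members stood above 10 CPM in both libraries (Ctnnb1, Ctnna1, Ctnnd1, Cxadr, Cldn12, Tjp1 and Pkp2), 3 had a mean above 2 CPM (Cldn1, Jup and Ppl), and the other 31 had a mean of at most 2 CPM. In early lesion and in TUBO, 36 members each stood above 10 CPM in both libraries. In bulk RNA, fewer cells that express a gene and less of its RNA per cell cannot be told apart.

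**Figure D1:**
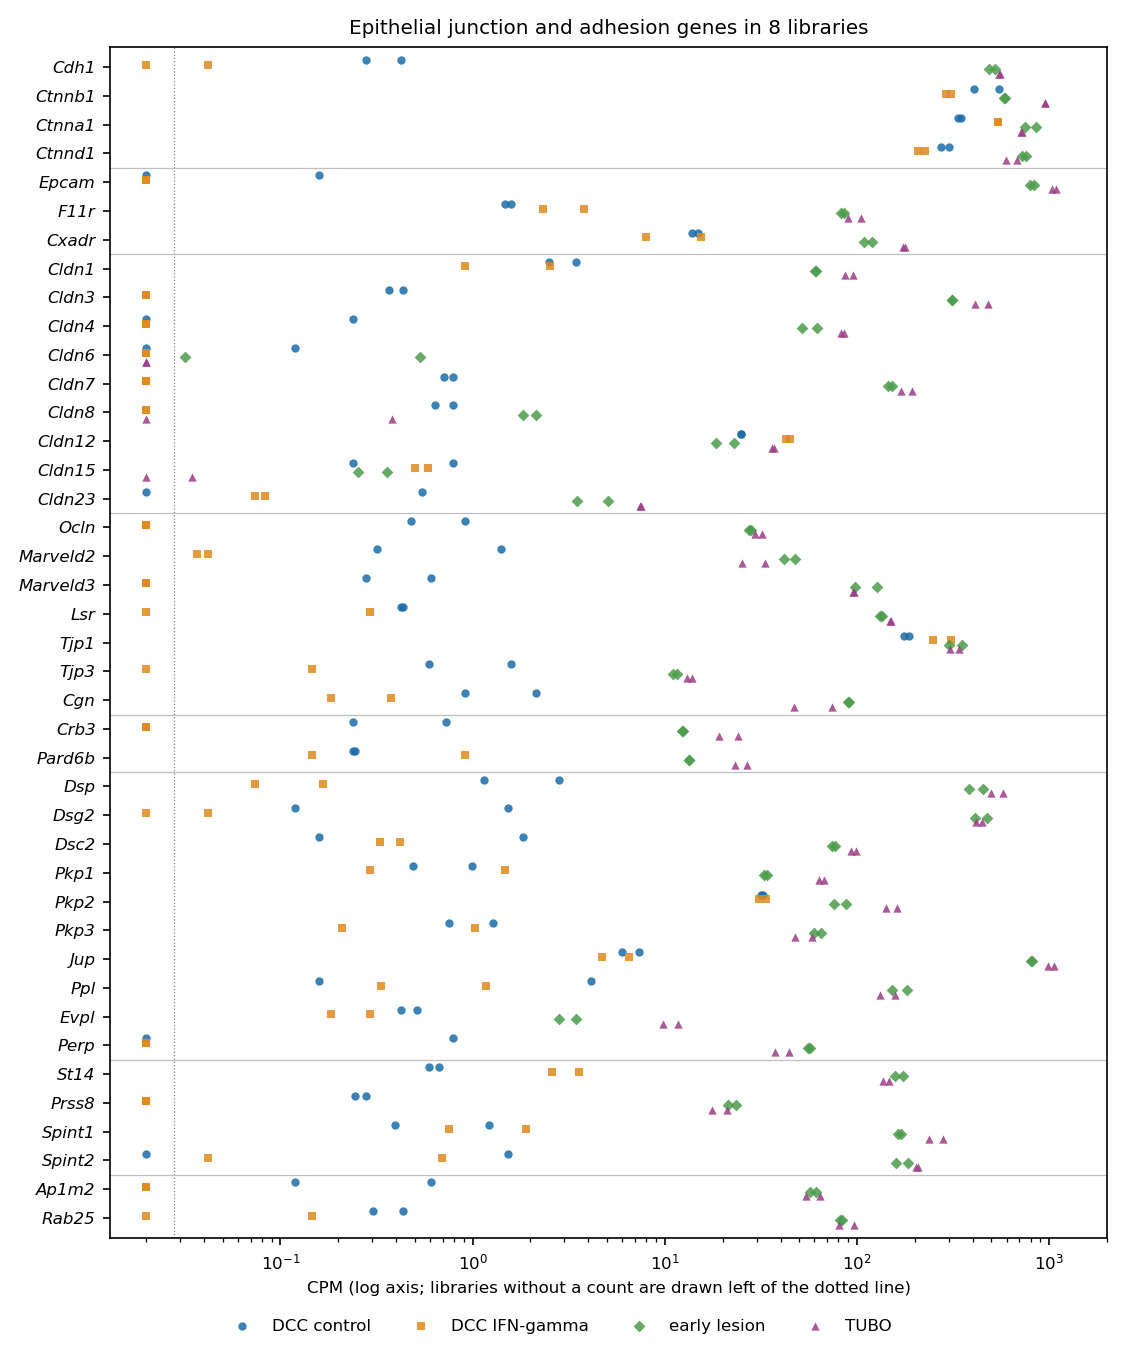
CPM of each of the 41 genes (rows, grouped by role between grey lines) on a log axis, 1 point per library, with libraries at 0 counts drawn left of the dotted line. The 3 catenins and Tjp1 lie above 100 CPM in all 8 libraries, while most other members lie near 1 CPM or lower in the DCC libraries and above 10 CPM in the tumour libraries.

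The level of signal on receptor genes gives a yardstick for the low values. Its 95th percentile was 0.335 CPM per kilobase of exon in DCC control 1 and 0.0636 in DCC control 2, and 22 and 33 of the 41 members exceeded it. Of these 19 did so in both libraries. Cdh1, Cldn23, Dsg2, Spint2 and Ap1m2 were at or below it in both, so their few DCC reads did not exceed the level seen on receptor genes. In the DCC IFN-gamma libraries, where the percentile was 0, 12 members had no read in either library.

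Promoters of members were compared because the Snai and Zeb repressors are known to bind the E-box CACCTG in the E-cadherin promoter, and because Grhl factors, known activators of epithelial junction genes, bind AACCGGTT. RefSeq windows from 250 bases before to 50 after a gene start (GRCm38.p6) were found for 25 of the 41 members; Cdh1 was not among them. CACCTG or its complement CAGGTG occurred in 16 of the 25 (64.0%) and in 22.6% of 27025 genes overall. By level, it occurred in 0 of the 4 matched members above 10 CPM in both DCC control libraries (Cldn12, Ctnnb1, Ctnnd1 and Tjp1) and in 16 of the other 21 (76.2%). The 5 others without it were Cgn, Cldn1, Cldn15, Jup and Spint1, so members without a box were also found among those at low level in DCC control. None of these 5 is printed below. Ctnna1, Cxadr and Pkp2, also above 10 CPM in both DCC control libraries, had no window, and a link between box and level was not tested. AACCGGTT, which reads the same on both strands, occurred in 0 of the 25 and in 0.174% of all genes. A match is a description of the letters in these windows, and binding was not measured. The 250 bases before the first listed start are shown for 4 members with several boxes (2 to 4) and for 2 members with none, chosen after the search to show both kinds; capitals mark CACCTG and CAGGTG. The first 4 members were at most at 0.73 CPM in any DCC control library, whereas Ctnnb1 and Cldn12 were above 20 CPM in all 8 libraries apart from Cldn12 in early lesion 1.
Epcam, chr17:87635729-87635978, plus strand: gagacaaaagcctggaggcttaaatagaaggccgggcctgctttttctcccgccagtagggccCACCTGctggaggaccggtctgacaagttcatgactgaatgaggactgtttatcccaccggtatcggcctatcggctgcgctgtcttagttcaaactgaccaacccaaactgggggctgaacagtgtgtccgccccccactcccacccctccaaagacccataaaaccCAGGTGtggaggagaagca
Crb3, chr17:57061951-57062200, plus strand: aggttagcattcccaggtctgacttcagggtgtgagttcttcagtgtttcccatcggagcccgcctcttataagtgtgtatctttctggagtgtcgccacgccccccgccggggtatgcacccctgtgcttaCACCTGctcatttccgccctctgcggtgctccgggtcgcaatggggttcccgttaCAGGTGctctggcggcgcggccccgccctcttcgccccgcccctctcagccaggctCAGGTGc
Lsr, chr7:30973470-30973719, minus strand: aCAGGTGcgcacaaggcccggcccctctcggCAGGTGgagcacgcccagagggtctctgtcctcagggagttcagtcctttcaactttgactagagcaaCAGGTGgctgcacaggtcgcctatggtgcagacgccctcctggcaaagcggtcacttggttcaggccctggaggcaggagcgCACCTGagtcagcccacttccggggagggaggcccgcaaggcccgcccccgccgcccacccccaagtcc
Ap1m2, chr9:21312334-21312583, minus strand: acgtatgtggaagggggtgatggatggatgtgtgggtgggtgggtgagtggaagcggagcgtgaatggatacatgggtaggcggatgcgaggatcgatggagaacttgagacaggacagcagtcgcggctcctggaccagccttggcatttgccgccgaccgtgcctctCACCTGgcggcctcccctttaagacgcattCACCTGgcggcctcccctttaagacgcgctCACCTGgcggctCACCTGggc
Ctnnb1, chr9:120933150-120933399, plus strand: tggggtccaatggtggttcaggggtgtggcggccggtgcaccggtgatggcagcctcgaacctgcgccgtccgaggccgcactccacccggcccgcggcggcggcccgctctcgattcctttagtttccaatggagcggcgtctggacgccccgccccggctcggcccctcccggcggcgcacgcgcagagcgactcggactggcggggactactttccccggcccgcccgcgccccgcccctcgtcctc
Cldn12, chr5:5514790-5515039, minus strand: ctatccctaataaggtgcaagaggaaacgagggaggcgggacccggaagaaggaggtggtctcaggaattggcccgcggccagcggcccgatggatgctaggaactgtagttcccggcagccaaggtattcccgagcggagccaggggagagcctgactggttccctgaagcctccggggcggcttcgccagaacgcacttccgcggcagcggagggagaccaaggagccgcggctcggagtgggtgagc
In Epcam the boxes begin 187 and 19 bases before the start. Ap1m2, the epithelial medium chain of the AP-1 clathrin adaptor, has 4 boxes, at 81, 51, 21 and 9 bases before its start. Crb3 has a further box 26 bases after its start, which is not printed.

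Untreated disseminated cells were first set against the early lesion. Of the 41 members, 36 (87.8%) were lower in DCC control at an adjusted p under 0.05 (edgeR's quasi-likelihood test, Benjamini-Hochberg adjusted over 17069 genes), where 18.7% of all genes tested were lower. The median log2 fold change of the 40 tested members was -5.97, against 0.23 for all genes. None was higher by edgeR (0 also at an unadjusted p under 0.05 and 0 by DESeq2), where 19.1% of all genes were. Both DCC control libraries lay below both early lesion libraries for 38 members (background 31.8%) and above them for 1, Cldn12 (background 38.6%). The mean level was at least 100-fold lower for 16 members, at least 10-fold lower for 30, and less than 10-fold lower for 6 of those called. With upper quartile factors in place of TMM the same 36 were lower (background 17.7%). Fibroblast and stromal markers moved the other way, with 8 of 9 higher in DCC control, as did 5 of 6 osteoblast, 4 of 5 pan-leukocyte, 1 of 5 myoepithelial and 1 of 4 adipocyte markers and 0 of 7 endothelial ones. Of 10 macrophage markers 7 were higher and 1, Cd14, lower, with sums of 107 and 110 CPM in DCC control and 99.7 and 105 CPM in early lesion. Their part in the lower member levels was not tested.

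Against TUBO the same test called 38 of 41 members (92.7%) lower in DCC control, with a background of 19.9%. The members' median log2 fold change was -6.19 and that of all genes 0.37, or 0.48 with upper quartile factors. None was higher by edgeR (0 also at an unadjusted p under 0.05; background 22.1%), while DESeq2 called 1, Cldn15 (adjusted p = 0.0356). Both DCC control libraries lay below both TUBO libraries for 38 members (background 31.0%) and above them for Cldn8 and Cldn15 (background 45.6%). With upper quartile factors 37 were lower (background 18.0%), all but Cldn12, and without TUBO 1 the periplakin gene Ppl was not called (0.0503). This comparison uses the same DCC control libraries as the one with early lesion, so the 2 sets of values are given side by side and are not independent.

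**Figure D2:**
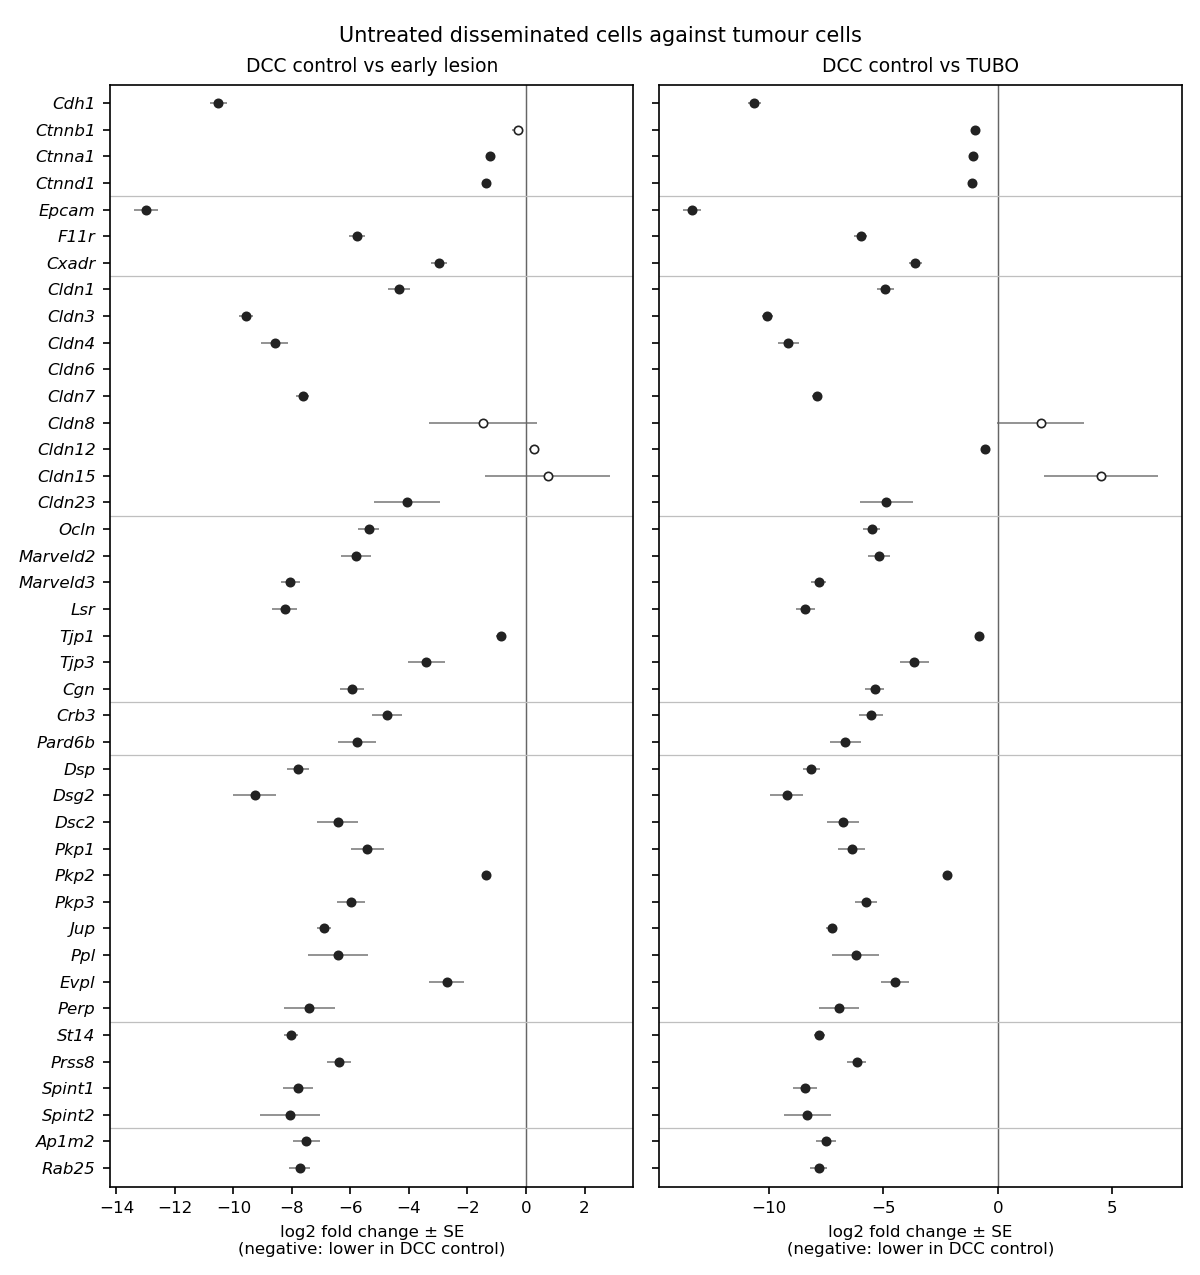
Log2 fold change with its standard error (edgeR) of each member in DCC control against early lesion (left) and against TUBO (right), with filled points for an adjusted p under 0.05; Cldn6 was not tested. Epcam and Cdh1 lie farthest to the left in both panels, and the catenins, Tjp1 and Cldn12 are among the points closest to 0.

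Cdh1 encodes E-cadherin (chr8:106603351-106670246, GRCm38, plus strand). It had 0.426 and 0.277 CPM in DCC control and 0 and 0.0417 CPM in DCC IFN-gamma libraries, where early lesion libraries had 521 and 485 CPM and TUBO libraries 556 and 548 CPM. These DCC values rest on 7, 7, 0 and 1 reads, and no DCC library came near a tumour library. Cdh1 was lower in DCC control by edgeR, with a log2 fold change of -10.52 ± 0.29 (SE, adjusted p = 1.01e-08) against early lesion and -10.65 ± 0.29 (1.39e-08) against TUBO.

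Its cytoplasmic partners kept high levels. Ctnnb1, beta-catenin, which also acts in Wnt signalling, had 408 and 548 CPM in DCC control and 310 and 292 CPM in DCC IFN-gamma libraries, where early lesion libraries had 587 and 581 CPM and TUBO libraries 951 and 952 CPM. Although no DCC control library reached an early lesion library, the difference was not called (log2 fold change -0.29 ± 0.18, edgeR adjusted p = 0.247), whereas against TUBO it was (-0.99 ± 0.18, 0.00115; 0.0525 without DCC control 1 and early lesion 2). Ctnna1, alpha-catenin, the actin-binding partner, had 348 and 337 CPM in DCC control and 544 and 540 CPM in DCC IFN-gamma libraries, where early lesion libraries had 852 and 744 CPM and TUBO libraries 721 and 710 CPM. It was 2.33-fold lower in mean level than in early lesion (log2 -1.22 ± 0.16, edgeR adjusted p = 0.000134) and 2.09-fold lower than in TUBO (-1.06 ± 0.16, 0.000314). Ctnnd1, p120-catenin, had 274 and 302 CPM in DCC control and 208 and 226 CPM in DCC IFN-gamma libraries, where early lesion libraries had 755 and 726 CPM and TUBO libraries 678 and 593 CPM. Its DCC control libraries lay above both DCC IFN-gamma and below all tumour libraries, and it was 2.57-fold and 2.21-fold lower in mean level than in early lesion and TUBO (edgeR adjusted p = 6.87e-05 and 0.00021). Per kilobase of exon, the level ratio of Ctnnb1 to Ctnna1 was 1.45 and 2.01 in DCC control and 1.63 and 1.66 in TUBO libraries. It was 0.705 and 0.669 in DCC IFN-gamma libraries, and 0.853 and 0.966 in those of early lesion. DCC control and TUBO were thus above 1, and the other 4 libraries below it, a ratio for which no test was run.

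Exons of 7 members overlap those of another gene of the table on the opposite strand: Cldn3 with Wbscr25, Crb3 with Dennd1c, Ctnna1 with Lrrtm2, Ctnnb1 with Ulk4, Cxadr with Btg3, Prss8 with Kat8 and Tjp3 with Apba3. Whether the counting used strand is not stated in the labels or notes used here, and whether reads came from the member or its partner cannot be told apart.

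Other cadherins took a different course in the same libraries. Cdh2, N-cadherin, a cadherin of neural and mesenchymal cells, had 128 and 143 CPM in DCC control and 114 and 108 CPM in DCC IFN-gamma libraries, where early lesion libraries had 28.1 and 24.3 CPM and TUBO libraries 0.276 and 0 CPM. Cdh11, a cadherin of mesenchymal and bone-forming cells, had 241 and 317 CPM in DCC control, 219 and 149 CPM in DCC IFN-gamma, and at most 1.03 CPM in any tumour library. Both were called higher in DCC control than in early lesion by edgeR (log2 2.37 ± 0.30, adjusted p = 0.000298, for Cdh2 and 8.74 ± 0.51, 8.65e-06, for Cdh11). Of 6 further cadherins listed, 3 (with Cdh13) were higher and 0 lower in DCC control against either tumour group. For this list and the further lists below, the background against early lesion was 19.1% of all genes tested higher and 18.7% lower in DCC control. Against TUBO it was 22.1% higher and 19.9% lower.

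**Figure D3:**
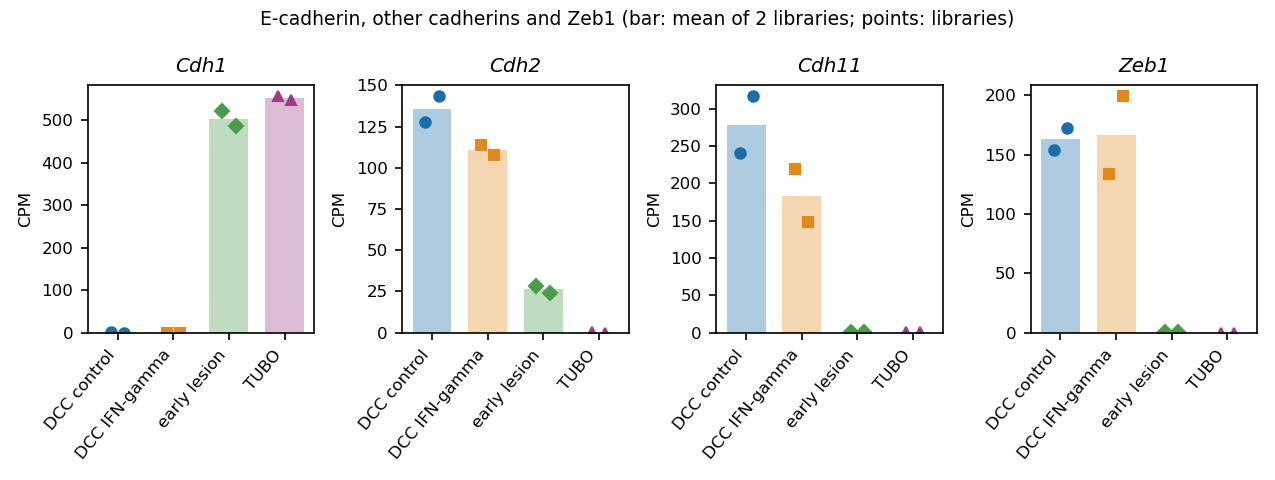
CPM of Cdh1, Cdh2, Cdh11 and Zeb1 by group, on linear axes from 0 that differ between panels; bars are means of 2 libraries and points the libraries. Cdh1 is near 0 in all 4 DCC libraries and above 480 CPM in all 4 tumour libraries, while Cdh11 and Zeb1 are above 130 CPM in the DCC libraries and at most 1.03 CPM in the tumour libraries.

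Among the other adhesion receptors, Epcam (chr17:87635979-87651129, GRCm38, plus strand), a calcium-independent adhesion protein of epithelia and carcinomas, was the member with the highest level per kilobase in early lesion and TUBO. It had 0 and 0.158 CPM in DCC control and 0 in both DCC IFN-gamma libraries, against 836 and 794 CPM in early lesion and 1034 and 1089 CPM in TUBO. The DCC control value rests on 4 reads, all in the second library, and the groups did not overlap. Its log2 fold change of -12.99 ± 0.41 (edgeR adjusted p = 3.64e-08) against early lesion and -13.37 ± 0.41 (2.83e-08) against TUBO was the largest among the members. F11r, which encodes the junctional adhesion molecule JAM-A, had 1.58 and 1.47 CPM in DCC control and 3.78 and 2.34 CPM in DCC IFN-gamma libraries, where early lesion libraries had 85.2 and 82.5 CPM and TUBO libraries 105 and 89.8 CPM. It was detectable in every DCC library at 26 to 103 reads, and was lower in DCC control than in both tumour groups (log2 -5.78 ± 0.27, edgeR adjusted p = 1.07e-07, and -6.00 ± 0.27, 7.24e-08). Cxadr, the coxsackievirus and adenovirus receptor of tight junctions, had 13.9 and 14.9 CPM in DCC control, where early lesion had 119 and 108 CPM and TUBO 174 and 177 CPM. This was a lower level than in both tumour groups (log2 -2.98, edgeR adjusted p = 1.92e-05, and -3.61, 5.71e-06).

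Claudins, which form the strands of tight junctions and set their permeability, differed widely among themselves. Cldn3 had 0.365 and 0.436 CPM in DCC control, 0 in both DCC IFN-gamma libraries, 311 and 310 CPM in early lesion, and 410 and 481 CPM in TUBO. Cldn4, which lies next to it on chromosome 5 (Cldn4 at chr5:134945119-134946934 and Cldn3 at chr5:134986214-134987472, GRCm38), had 0 and 0.238 CPM in DCC control, 61.7 and 51.7 CPM in early lesion, and 82.1 and 85.6 CPM in TUBO. Both genes of this pair were all but absent from DCC libraries and had no overlap with the tumour libraries (log2 -9.56 ± 0.25, edgeR adjusted p = 1.7e-08, for Cldn3 and -8.59 ± 0.46, 1.35e-06, for Cldn4 against early lesion; -10.08 ± 0.25, 1.42e-08, and -9.16 ± 0.47, 8.69e-07, against TUBO). Cldn1, Cldn7 and Cldn23 were called lower in DCC control as well, by 15.7-fold to 198-fold in mean level against early lesion. In a fit of these 2 groups alone Cldn23 was not called (edgeR adjusted p = 0.0765), nor was the desmosome-group member Evpl (0.0583).

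Cldn12, a claudin that lacks the usual C-terminal PDZ-binding motif, kept its level. It had 25.0 and 24.9 CPM in DCC control and 42.7 and 44.8 CPM in DCC IFN-gamma libraries, where early lesion libraries had 18.6 and 22.8 CPM and TUBO libraries 36.0 and 36.9 CPM. DCC control lay above early lesion without a call (log2 0.27 ± 0.18, edgeR adjusted p = 0.289) and below TUBO (-0.55 ± 0.18, 0.0294), a call lost when any 1 library of either group was left out (adjusted p of 0.107 to 0.13). Cldn8 and Cldn15 were under 1 CPM in every DCC library and were not called in either comparison. Cldn6, an embryonic claudin, had 0 and 3 reads in DCC control, 1 and 12 in early lesion, and 0 in the other 4 libraries.

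Outside the members, 11 further claudins were listed; 8 could be tested. Cldn2, a claudin of leaky, cation-permeable epithelia, had 35.8 and 33.7 CPM in TUBO and at most 0.446 CPM in the other 6 libraries. Cldn10 had 36.3 and 34.7 CPM in TUBO, 2.38 and 2.59 CPM in early lesion, and at most 0.183 CPM in DCC libraries. Both were higher in TUBO than in early lesion by edgeR (log2 6.27 ± 0.42 and 3.83 ± 0.39, adjusted p = 1.34e-05 and 0.000152). Cldn25 showed 68.2 to 118 CPM in all 8 libraries.

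The 7 occludin-type, tricellular and scaffold genes were all lower in DCC control than in each tumour group. Ocln (occludin), Marveld2 (tricellulin, of three-cell contacts), Marveld3 and Lsr (angulin-1, which recruits tricellulin) had 0.277 to 1.4 CPM in the DCC control libraries and 25.3 to 151 CPM in the tumour libraries. Marveld3 and Lsr fell furthest against early lesion, by log2 fold changes of -8.06 ± 0.33 (edgeR adjusted p = 1.3e-07) and -8.25 ± 0.42 (8.07e-07), and Lsr by -8.42 ± 0.42 (6.53e-07) against TUBO. Tjp1, the scaffold ZO-1, had 175 and 186 CPM in DCC control and 310 and 249 CPM in DCC IFN-gamma libraries, where early lesion libraries had 352 and 302 CPM and TUBO libraries 340 and 304 CPM. The tumour levels were 1.81-fold and 1.78-fold higher in the mean (log2 -0.86 ± 0.17, edgeR adjusted p = 0.0021, against early lesion, 0.0515 without DCC control 1 and early lesion 2; -0.84 ± 0.17, 0.00229, against TUBO). Its paralogue Tjp3, ZO-3, had 1.58 and 0.594 CPM in DCC control, and was 10.4-fold and 12.3-fold lower in mean level than in early lesion and TUBO. Among 15 further tight junction genes, 6 were lower and 6 higher in DCC control than in early lesion, and 6 lower and 7 higher than in TUBO. The angiomotin-like Amotl2 was one of the higher ones, with 239 and 238 CPM in DCC control against 95.9 and 87.2 CPM in early lesion.

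Both polarity members were lower in DCC control. Crb3, the Crumbs protein of the apical membrane, had 0.73 and 0.238 CPM in DCC control, 12.5 and 12.3 CPM in early lesion, and 19.2 and 24.0 CPM in TUBO, and Pard6b of the Par complex followed the same order. Of 13 further polarity genes, 5 were lower and 2 higher in DCC control than in early lesion, and 6 lower and 2 higher than in TUBO. Dlg1, a scaffold of the basolateral Scribble module, was higher, with 302 and 338 CPM in DCC control and 172 and 145 CPM in early lesion.

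All 10 desmosome and envelope members were lower in DCC control than in each tumour group. Dsp, desmoplakin, which anchors keratin filaments, had 2.8 and 1.15 CPM in DCC control and 0.0733 and 0.167 CPM in DCC IFN-gamma libraries, where early lesion libraries had 453 and 381 CPM and TUBO libraries 572 and 496 CPM. The groups were far apart (log2 -7.79 ± 0.38, edgeR adjusted p = 6.11e-07, against early lesion and -8.15 ± 0.38, 4.59e-07, against TUBO). Dsg2, the desmoglein of simple epithelia, had 1.52 and 0.119 CPM in DCC control against 412 to 475 CPM in the tumour libraries (log2 -9.28 ± 0.72, edgeR adjusted p = 0.00011, and -9.24 ± 0.72, 0.000103). Jup, plakoglobin, a relative of beta-catenin found in both adherens junctions and desmosomes, had 5.97 and 7.37 CPM in DCC control and 4.69 and 6.51 CPM in DCC IFN-gamma libraries, where early lesion libraries had 812 and 805 CPM and TUBO libraries 990 and 1057 CPM. It was lower in DCC control than in early lesion and TUBO (log2 -6.91 ± 0.24, edgeR adjusted p = 2.36e-08, and -7.25 ± 0.24, 1.53e-08). Per kilobase, the level of Jup was 0.0108 to 0.018 of that of Ctnnb1 in the DCC libraries and 0.839 to 1.12 of it in the tumour libraries, so the level of beta-catenin exceeded that of plakoglobin by far more in DCC.

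Perp, a p53- and p63-regulated desmosome protein, had 0.791 and 0 CPM in DCC control, 0 in both DCC IFN-gamma libraries, 57.0 and 55.7 CPM in early lesion, and 44.3 and 37.5 CPM in TUBO. Its 13 reads in DCC control all came from the library with the most reads outside genes, whose part in them was not tested. Perp was called lower against both tumour groups (log2 -7.40 ± 0.88, edgeR adjusted p = 0.00162, and -6.94 ± 0.87, 0.00194). Pkp2, plakophilin 2, differed from its relatives. It had 31.8 and 32.4 CPM in DCC control and 33.6 and 30.8 CPM in DCC IFN-gamma, where early lesion had 88.1 and 75.6 CPM and TUBO 161 and 142 CPM. Though well above the floor, it was called lower in DCC control against both (log2 -1.35, edgeR adjusted p = 6.78e-05, and -2.24, 1.92e-06). Pkp1 and Pkp3 had 0.487 to 1.28 CPM in DCC control. Among 8 other desmosome genes Pkp4 was lower against both tumour groups, with 28.9 and 31.7 CPM in DCC control, and Dst, dystonin, had 545 to 1204 CPM in all 8 libraries.

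The membrane serine proteases St14 (matriptase) and Prss8 (prostasin) act in a cascade that epithelia use to form their barrier, and Spint1 and Spint2 encode their inhibitors HAI-1 and HAI-2. St14 (chr9:31089402-31131853, GRCm38, minus strand) had 0.67 and 0.594 CPM in DCC control and 2.6 and 3.59 CPM in DCC IFN-gamma libraries, where early lesion libraries had 174 and 158 CPM and TUBO libraries 147 and 136 CPM. It was lower in DCC control than in either tumour group (log2 -8.04 ± 0.25, edgeR adjusted p = 1.6e-08, and -7.81 ± 0.25, 1.42e-08). Spint1 and Spint2 were lower too, at log2 -7.80 ± 0.50 (edgeR adjusted p = 1.4e-05) and -8.07 ± 1.01 (0.00103) against early lesion and -8.43 ± 0.51 (9.24e-06) and -8.32 ± 1.02 (0.000859) against TUBO. Spint2 had 25 reads in DCC control 1 and 0 in DCC control 2. Ap1m2 and Rab25, the trafficking members, had 0.119 to 0.609 CPM in DCC control against 54.1 to 96.2 CPM in the tumour libraries.

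**Figure D4:**
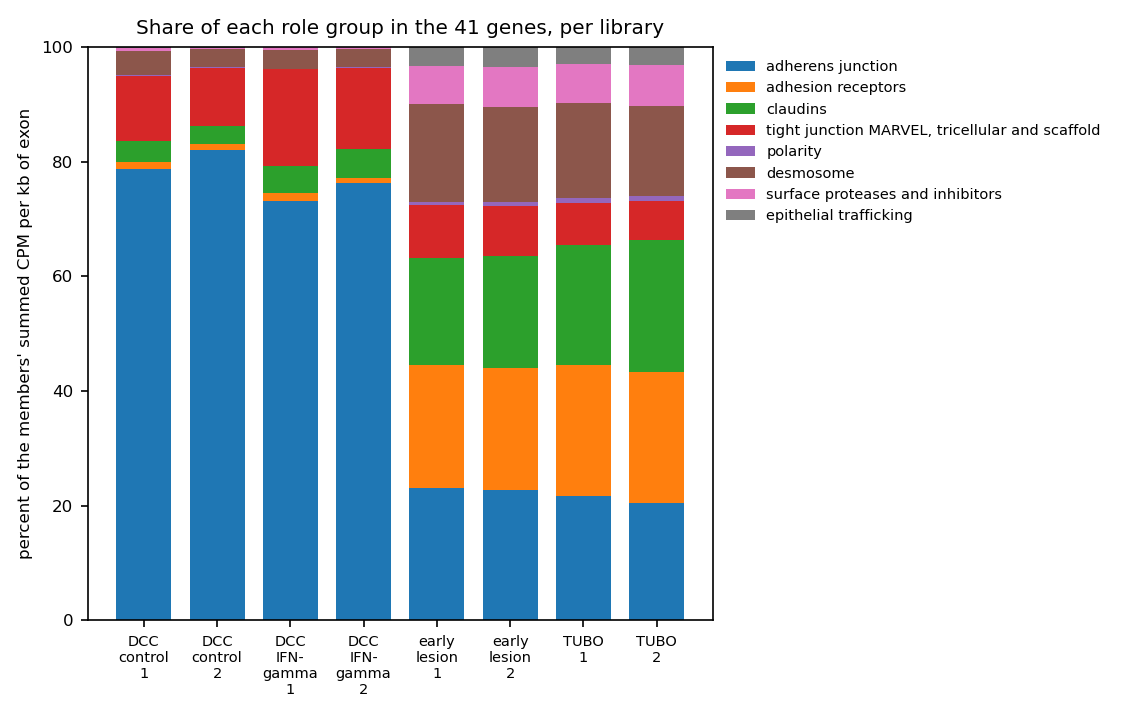
Share of each role group in the summed CPM per kilobase of exon of the 41 genes, 1 stacked bar per library. Adherens junction genes take 73.1% to 82.0% in the DCC libraries and 20.4% to 23.1% in the early lesion and TUBO libraries, where receptors, claudins and desmosome genes take most of the rest.

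Summed per kilobase of exon, the levels of the members changed in make-up as well as in size. Adherens junction genes made up 78.8% and 82.0% of the sum in DCC control and 73.1% and 76.3% in DCC IFN-gamma, whereas early lesion had 23.1% and 22.6% and TUBO 21.7% and 20.4%. Claudins made up 3.25% to 4.94% in the DCC libraries and 18.7% to 23.1% in the tumour libraries. In DCC control the order of levels per kilobase was Ctnnb1 at 92.1 ± 19.0 (SD, n = 2), Ctnna1 at 53.3 ± 1.18, Ctnnd1 at 39.4 ± 2.75, Tjp1 at 23.1 ± 0.96, Pkp2 at 5.99 ± 0.07 and Cldn12 at 5.90 ± 0.01 CPM per kilobase. In early lesion it began with Epcam at 371 ± 13.5, Cldn3 at 247 ± 0.31, Jup at 126 ± 0.74 and Ctnna1 at 124 ± 11.9, of which Jup and Ctnna1 overlapped. In TUBO it began with Epcam at 484 ± 17.9, Cldn3 at 354 ± 40.0, Ctnnb1 at 183 ± 0.06 and Jup at 159 ± 7.41 CPM per kilobase, with no overlap between neighbours.

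Regulators of the epithelial state were read from lists. All 8 listed inducers of epithelial-mesenchymal transition were higher in DCC control than in early lesion and than in TUBO (edgeR adjusted p under 0.05). The same DCC control libraries held 7456 and 8593 CPM of fibroblast and stromal markers and 2332 and 2682 CPM of osteoblast markers. Which cells held the RNA of these regulators cannot be told apart in bulk RNA, and a transition of the cancer cells was not tested. Snai2, a repressor of E-cadherin, had 706 and 748 CPM in DCC control, 158 and 169 CPM in DCC IFN-gamma, and at most 1.16 CPM in the tumour libraries. Prrx1, a homeobox factor of mesenchyme, had 449 and 499 CPM in DCC control and at most 1.38 CPM in the tumour libraries. Zeb1 had 154 and 173 CPM in DCC control, 134 and 199 CPM in DCC IFN-gamma, and at most 0.937 CPM in the tumour libraries, so that no regulator of these 3 overlapped between DCC control and tumour groups. Of 14 epithelial transcription and splicing regulators, 11 were lower and 1 higher against early lesion, and 12 lower and 1 higher against TUBO. Tfap2c, a factor of mammary luminal cells, had 0.852 and 0.0792 CPM in DCC control against 458 and 423 CPM in early lesion, and Ehf, an epithelial Ets factor, 2.19 and 1.98 CPM against 513 and 443 CPM. Trp63, the p63 gene of basal epithelia, was the 1 gene that was higher in DCC control, with 63.6 and 80.0 CPM against at most 6.93 CPM in the tumour libraries.

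Without DCC control 1 and early lesion 2, the pair that stood apart, 34 of 41 members were lower in DCC control than in early lesion (background 13.0%) and 36 than in TUBO (background 14.5%), with 0 higher in either by edgeR (backgrounds 13.0% and 18.2%). All of these were among those called with every library. Those lost were Tjp1 and Evpl (edgeR adjusted p = 0.0556) against early lesion, and Ctnnb1 and Cldn12 against TUBO.

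Between the 2 tumour groups the median log2 fold change of the members was 0.23, and that of all genes -0.27. TUBO was higher than early lesion for 5 of 41 members (12.2%) and lower for 0, with backgrounds of 11.4% higher and 12.7% lower among all genes tested, so the share called higher is near that of all genes. Beside the 0 by edgeR, 0 were lower at an unadjusted p under 0.05 and 0 by DESeq2. The 5 were Evpl, Pkp2, Cldn12, Ctnnb1 and Cldn3. Envoplakin (Evpl), a plakin of the cornified envelope, had 11.7 and 9.76 CPM in TUBO and 2.83 and 3.43 CPM in early lesion (log2 1.78 ± 0.53, edgeR adjusted p = 0.0348). Pkp2 was 1.85-fold higher in mean level (0.89 ± 0.15, edgeR adjusted p = 0.0021), Cldn12 1.76-fold (0.82 ± 0.18, 0.00742), Ctnnb1 1.63-fold (0.70 ± 0.18, 0.0152) and Cldn3 1.43-fold (0.52 ± 0.15, 0.0333). Libraries of the 2 groups did not overlap for any of the 5.

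The remaining members of the panel were not called between the tumour groups by edgeR over all libraries; DESeq2 called 6 members higher, Epcam (adjusted p = 0.00962) beside the 5, and Epcam was also called in a fit of these groups alone (0.0344). Their log2 fold changes (TUBO over early lesion, edgeR) were 0.13 ± 0.17 for Cdh1, -0.16 ± 0.15 for Ctnna1, -0.22 ± 0.15 for Ctnnd1, -0.02 ± 0.16 for Tjp1, 0.34 ± 0.18 for Jup, 0.38 ± 0.21 for Epcam, 0.21 ± 0.20 for F11r, 0.36 ± 0.27 for Dsp, -0.46 ± 0.57 for Perp and -0.23 ± 0.16 for St14. Without overlap between libraries, 24 members were higher (58.5%, background 27.9%) and 12 lower (29.3%, background 34.0%) in TUBO. These calls changed with single libraries: leaving out 1 library left 1 or 2 of the 5, Pkp2 always among them, and without DCC control 1 and early lesion 2 edgeR called 0 higher (background 5.02%; Pkp2 at an adjusted p of 0.0712) and 0 lower (background 7.29%). A fit of these 2 groups alone called 14 higher (34.1%) and 3 lower (7.32%), where 21.4% of all genes were higher and 22.1% lower. Among related genes, vinculin (Vcl), which reinforces adherens junctions under tension, had 7.45 and 6.45 CPM in TUBO and 319 to 681 CPM in the other 6 libraries.

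After interferon-gamma St14, F11r, Cldn12, Ctnna1 and Tjp1 were called higher, and Ctnnb1 and 12 scarce members lower, in the fit of all 8 libraries. Fewer of these calls were made from the 4 DCC libraries alone. The members' summed level was 1315 and 1469 CPM before treatment and 1485 and 1408 CPM after it, so the groups overlapped. By edgeR 5 of 41 members (12.2%) were higher and 13 (31.7%) lower after treatment. Of all genes tested, 12.6% were higher and 8.83% lower, so the share higher is near the background. The share lower stood above it in this fit of all 8 libraries, but 6 of the 13 (Cdh1, Marveld2, Marveld3, Crb3, Prss8 and Ap1m2) passed the filter on low counts only through the tumour libraries. A fit of the 4 DCC libraries alone did not test those 6. It called 6 of the 26 members tested lower, with a background of 15.3%. As a share of all 41 this is 14.6%, which counts untested members as not lower and cannot be set against that background. Of the 6, 5 were among the 13 (Ctnnb1, Dsp, Cldn3, Cldn7 and Ocln), and Cldn8 was not. Libraries did not overlap for 5 members that were higher (background 28.3%) and 19 that were lower (background 37.9%), and 19 were lower at an unadjusted p under 0.05. The members' median log2 fold change was -1.38. The split of all genes depended on scaling, with 2148 higher and 1508 lower at TMM factors and 1526 and 2221 at upper quartile factors, which moved the median log2 fold change of all genes from -0.20 to -0.40. With upper quartile factors 3 members were higher (background 8.94%) and 15 lower (background 13.0%).

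Among the 5 that rose, St14 rose 4.9-fold in mean level (log2 2.29 ± 0.26, edgeR adjusted p = 0.0002), from 11 and 15 reads to 71 and 86, and still stood far below the tumour libraries. It was called under each of the alternatives run. Cldn12 rose 1.75-fold (0.81 ± 0.18, 0.00898), Ctnna1 1.58-fold (0.66 ± 0.15, 0.0124), Tjp1 1.55-fold (0.63 ± 0.17, 0.0222) and F11r 2.01-fold (1.01 ± 0.27, 0.0222), each with both treated libraries above both untreated ones. St14 alone remained called without DCC control 1, without DCC control 2, and without DCC control 1 and early lesion 2 together (background then 6.44%); the adjusted p of the other 4 was 0.0509 to 0.21 in these fits. F11r (0.0583) and Tjp1 (0.0755) were not called with upper quartile factors, nor without DCC IFN-gamma 1. In the fit of the 4 DCC libraries alone F11r was not called either (log2 0.99 ± 0.60, edgeR adjusted p = 0.253).

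Ctnnb1 fell 1.59-fold (log2 -0.67 ± 0.18, edgeR adjusted p = 0.0223), a call lost without DCC control 2 (0.255) and without DCC control 1 and early lesion 2 (0.0674). The other 12 that were called lower had low levels to begin with: means of 0.26 to 1.97 CPM in DCC control, or 3 to 46 reads per library, and at most 9 reads in any treated library. Desmoplakin (Dsp) was highest of them, with 46 and 29 reads falling to 2 and 4 (log2 -3.95 ± 0.60, edgeR adjusted p = 0.00192). Cgn, the tight junction linker cingulin, fell from 35 and 23 reads to 5 and 9 (-2.38 ± 0.57, 0.0183), and Tjp3 from 26 and 15 to 4 and 0 (-3.70 ± 0.85, 0.0119). Neither was called in the fit of the 4 DCC libraries alone (edgeR adjusted p = 0.101 for Cgn and 0.0784 for Tjp3). Both were lost without DCC control 1 (0.0706 and 0.0682), and Cgn also without DCC IFN-gamma 1 (0.193) or 2 (0.0868). Cldn3, Cldn7, Ocln, Marveld3, Crb3, Prss8 and Ap1m2 had no read in either treated library, which makes them at least 2.21-fold (Prss8) to 6.40-fold (Cldn7) lower against a floor of 3 counts per library. Cdh1 went from 14 reads to 1, a ratio of 17.2 with a 95% counting interval of 2.62 to 728 (exact binomial), and Marveld2 from 31 reads to 2, a ratio of 19.1 (4.85 to 164). Marveld2 was not called without DCC IFN-gamma 1 (0.127) or 2 (0.103), nor Ap1m2 without DCC control 1 (0.0706) or DCC IFN-gamma 1 (0.0595). Leaving out 1 library gave 11 to 16 lower members, and leaving out DCC control 1 and early lesion 2 gave 9, of which 8 were among the 13 (background 4.03%).

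Receptor genes with a read moved the same way as these low members, from 47.7% and 11.9% in DCC control to 2.0% and 1.17% in DCC IFN-gamma, and so did the reads in no annotated gene, from 49.2% and 31.0% to 24.4% and 21.9%. The part of this signal in the 12 low calls was not tested. Markers of other cell types moved too. Of 10 macrophage markers 9 were higher after treatment, and their sum went from 107 and 110 CPM to 1454 and 1077 CPM. Pan-leukocyte markers went from 32.6 and 27.7 CPM to 334 and 288 CPM, and none of either list was at 0 in a DCC library. Fibroblast and stromal markers went from 7456 and 8593 CPM to 713 and 1171 CPM (4 of 9 lower, 1 higher), and osteoblast markers from 2332 and 2682 CPM to 134 and 252 CPM. Endothelial markers summed to 9.68 and 1.98 CPM before and 3.08 and 1.38 CPM after treatment. Their part in the rise of St14, F11r, Cldn12, Ctnna1 and Tjp1 was not tested.

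**Figure D5:**
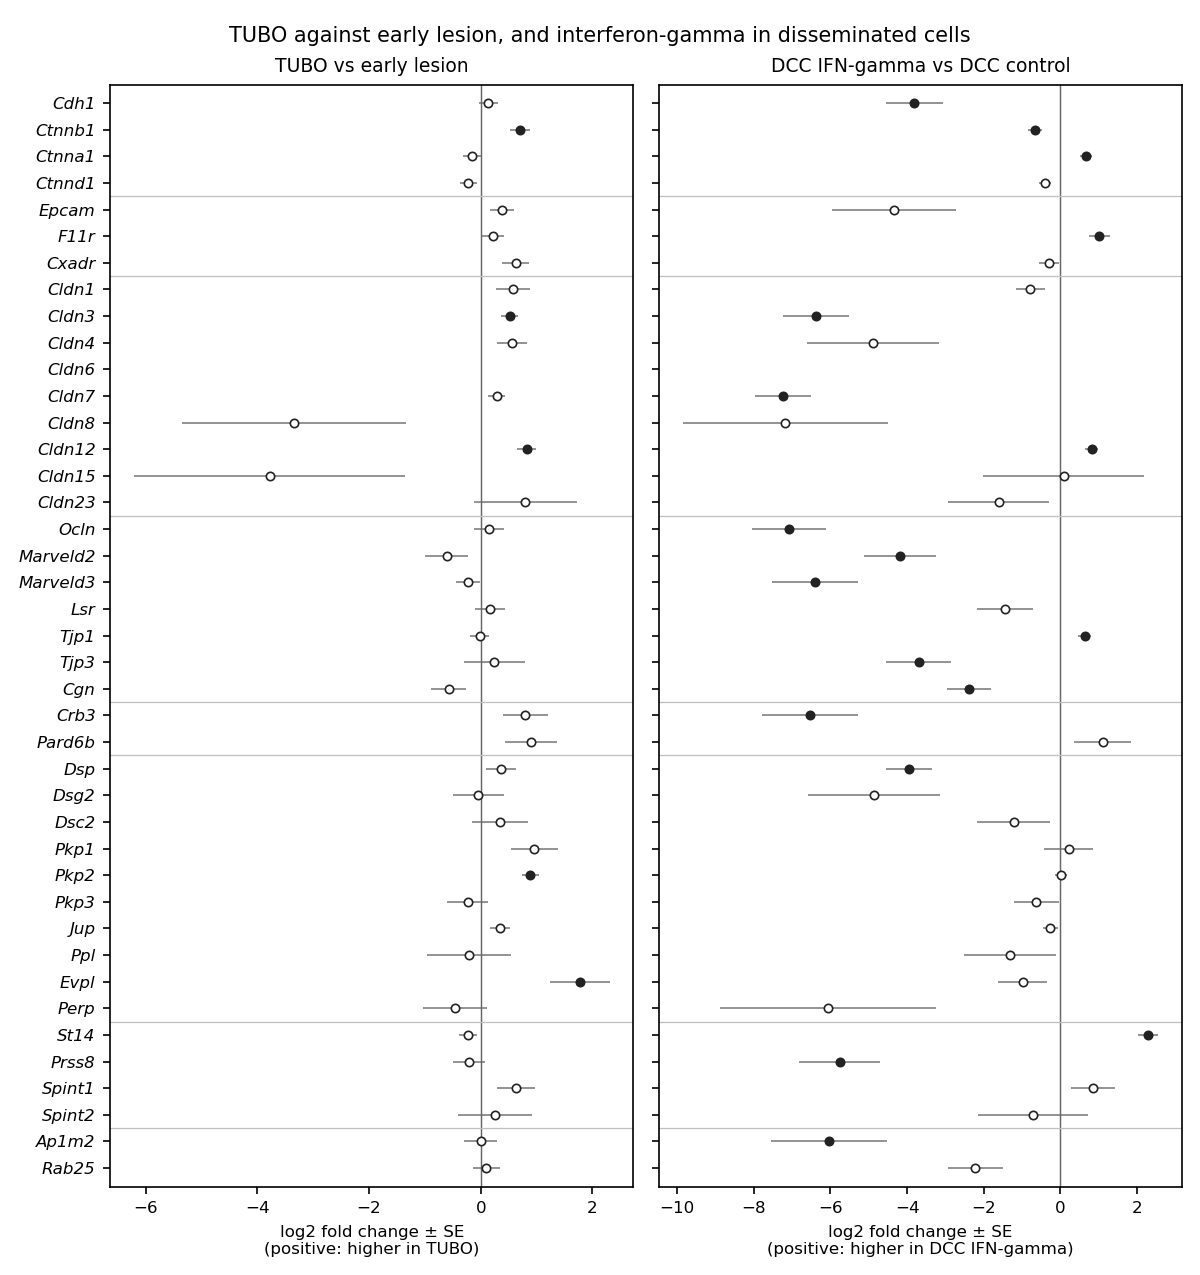
Log2 fold change with its standard error (edgeR) of each member for TUBO against early lesion (left) and DCC IFN-gamma against DCC control (right), with filled points for an adjusted p under 0.05. On the left most points lie within 1 log2 unit of 0, and on the right St14 lies farthest to the right while low-level members spread to the left.

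Ctnnd1, Jup and Pkp2 were not called after interferon-gamma: log2 fold changes were -0.41 ± 0.16 for Ctnnd1 (edgeR adjusted p = 0.0905, but 0.0128 with upper quartile factors and 0.00198 by DESeq2), -0.26 ± 0.21 for Jup (0.369) and 0.00 ± 0.15 for Pkp2 (0.988). Epcam (0.0918, but 0.0371 without DCC control 1) and Perp (0.201, but 0.000223 without DCC control 2) had no read in either treated library. Related genes moved in both directions. For these lists the background was 12.6% of all genes tested higher and 8.83% lower. Of 15 tight junction genes outside the members, 5 were higher and 2 lower after treatment. Cgnl1, paracingulin, rose from 8.89 and 15.8 CPM to 40.3 and 44.0 CPM (log2 1.76 ± 0.25, edgeR adjusted p = 0.000767). Of 12 adherens junction genes 4 were higher and 1 lower. Nectin1, an immunoglobulin-type adhesion receptor, rose from 19.0 and 13.6 CPM to 66.6 and 58.4 CPM (1.94 ± 0.24, 0.000382), and Afdn, afadin, which binds nectins to actin, from 26.1 and 29.4 CPM to 68.9 and 48.0 CPM (1.08 ± 0.20, 0.00349). Of 14 epithelial regulators 6 were lower and 1, Klf5, was higher, and of 8 inducers of epithelial-mesenchymal transition 3 were lower, among them Snai2, and 0 higher by edgeR.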

How the data were processed

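Gene expression was measured by RNA-seq in 8 mouse libraries, 2 in each of 4 groups. The authors deposited 1 table of raw counts of reads per gene for 23478 genes; closing lines for reads in no gene, ambiguous reads and the like held 35.2% to 63.7% of each library and stayed out of library sizes and tests. Per the labels' protocols, RNA came from RNeasy Mini columns and libraries from the Mouse RNAseq version of Nugen's Ovation kit. Per the submitters' processing notes, TopHat, HTSeq 0.6.1 and the mm10 build were used, with no role stated; the annotation, the strand setting and filters are not given in the sources used here. Counting intervals cover counting error only.

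From the counts, genes were kept by edgeR's filterByExpr with a minimum count of 10 (17069 genes), scaled by TMM, and tested over all 8 libraries with edgeR 4.0.16 (quasi-likelihood test, R 4.3.3; common biological coefficient of variation 0.416, 4 residual degrees of freedom). P-values were adjusted by Benjamini and Hochberg over all genes tested, and called at 0.05. Alternatives tried were scaling by upper quartile or RLE factors, dropping the filter, at least 50 counts in 2 libraries, DESeq2 1.42.0, the replicate number as a block, only the groups compared, each library left out, and DCC control 1 and early lesion 2 left out together. The fitting script was tested on simulated data. Levels per kilobase use exon lengths of the GRCm38 annotation (GENCODE M21); promoter windows are from RefSeq on GRCm38.p6.

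Members and gene lists were chosen with earlier results of these data known. Statistics are given in full for the 8 largest called changes per direction and comparison with libraries that do not overlap and a mean of at least 1 CPM in the higher group, and for a panel of 12 members (Epcam, Cdh1, Ctnnb1, Ctnna1, Ctnnd1, Jup, Tjp1, F11r, Cldn12, Dsp, Perp, St14). Other members appear by values or ranges, and list genes that are not the highest of their list were chosen after their values were seen. Replicate numbers were checked for pairing: deviations of same-numbered libraries correlated at -0.43 to 0.10 over the 6 pairs of groups. The lowest value was that of DCC control with early lesion. A correlation over all genes cannot exclude pairing, and the libraries were treated as unpaired in the main fit.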

Additional observations from a re-analysis of the deposited data

How the results depend on the processing

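Against both tumour groups the lower members kept their direction in every alternative run. In the alternatives that kept all libraries of the groups compared, 34 to 36 were called lower against early lesion (14.7% to 25% of all genes). Against TUBO these fits called 37 to 38 lower (15.6% to 25.9% of all genes). DESeq2 called 1 member higher against TUBO (28.7% of all genes). For TUBO against early lesion, 9 members were higher with no filter (9.99% of all genes) and 14 in a fit of only the 2 groups (21.4%). In the same fits 1 was lower with no filter (13.9%) and 3 with only the 2 groups (22.1%). Leaving libraries out changed these calls, as given above. After interferon-gamma 3 were higher with upper quartile factors (8.94% of all genes). Fits with libraries left out lost calls of higher members other than St14, as given above. Members lower after treatment numbered 21 with no filter (9.96% of all genes) and 18 by DESeq2 (13.7%). Both sets held all 13 of the main fit. In the fit of only the 2 groups they numbered 6 of the 26 members tested (15.3% of genes tested), and 5 of these 6 were also called in the main fit. The 2-group fit tests fewer members; the other causes were not tested. No call reversed among the alternatives run, but 17 of 160 fitted log2 fold changes, none of them called, took both signs, such as Spint2 after interferon-gamma (-3.75 to 6.41). A group left with 1 library was assumed to vary like the others.

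With the replicate number as a block, 36 members were lower against early lesion (18.5% of all genes) and 38 against TUBO (19.5%). Between the tumour groups 4 were higher in TUBO (11.2% of all genes), with Evpl at an edgeR adjusted p of 0.0604. After interferon-gamma 5 were higher (12.1% of all genes) and 13 lower (8.32%) in this block fit. Crossing the numbers of early lesion, an alternative added after seeing the data, gave 36 lower against early lesion (18.3% of all genes). With 2 libraries a group and members at 0 to 46 reads in DCC libraries, changes among scarce members rest on few reads.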
